A study of Mus musculus with 5 samples.

Results

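The genes described here encode Toll-like receptors, NOD-like receptors, C-type lectins, killer cell lectin-like receptors, Fc receptors, paired immunoglobulin-like receptors, TREM receptors and their adaptor, the scavenger receptors Marco and Msr1, and galectins. They were chosen by gene name from the platform annotation of the array, leaving out Clec10a, and a gene was kept where at least 4 of the 5 arrays held a value. The array named 71 such genes, of which 55 passed this filter, against 9727 genes tested in all out of 13410 with a named probe. A name pattern also takes in a few relatives by name only, such as Fcgrt, which encodes the neonatal Fc receptor that carries IgG across cells, and Lgals3bp, which encodes a secreted protein that binds galectins and is not one itself.

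The RNA came from lungs of 5 C3H mice, an inbred strain, that were sensitised to ovalbumin and challenged with it (ova mice), and from a pool of lungs of control C3H mice. Ovalbumin, a protein of egg white, serves as the allergen. Each ova mouse was hybridised on its own 2-colour array against the same pool, after RNA amplification, and the labels number the mice 1 to 5 as separate animals. The sources used here do not give the C3H substrain, the age and sex, the challenge schedule or the number of mice in the pool. As all ratios share 1 pool, the spread below holds none among control mice. It is that among ova mice together with that among their arrays, which cannot be told apart.

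The deposited values are log ratios whose numerator and log base are not stated. They were taken as log2 and centred on the median of each array. A gene is therefore described by its side of the ratio, below 0 or above 0, and not as higher or lower in the ova lungs. Retnla and Clca1, which encode a secreted product of alternatively activated macrophages and a product of mucus cells and are known to rise in allergic airways, had mean ratios of -4.79 and -4.33. Muc5ac, another gene of the allergic response, had -3.00. If these genes rose here, a ratio below 0 would mean an excess in the ova lungs. The order of names in the sample titles would instead put such an excess above 0, so the direction is not settled here. A gene is said to pass the threshold where its Benjamini-Hochberg adjusted p in limma's moderated test against 0, over all genes, was under 0.05. In whole lung, more or fewer cells of a type and more or less RNA per cell cannot be told apart.

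Innate immune cells recognise microbes and damaged tissue with germline-encoded receptors. Toll-like receptors bind microbial lipids, proteins and nucleic acids, and NOD-like receptors do so in the cytosol. Many C-type lectins, Fc receptors and TREM receptors cannot signal alone and rely on small adaptors, Fcer1g and Tyrobp, that carry an immunoreceptor tyrosine-based activation motif (ITAM). Phosphorylated ITAMs recruit the kinase Syk, and receptors with an inhibitory motif (ITIM) recruit phosphatases that oppose it. In the lung these receptors are known from alveolar and interstitial macrophages, dendritic cells, neutrophils, mast cells, B cells and natural killer cells. Fc receptors link allergen-specific IgE and IgG to these cells.

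Of the 55 tested genes, 23 passed below 0 and 5 above 0, and 27 did not pass. Among all 9727 genes, 15.0% passed below 0, 12.3% above 0 and 27.3% on either side. These shares are also the background for the counts of each family and list below. The share of the receptor genes was 41.8% below 0, which is above that background, and 9.09% above 0. Without mouse 2, 3 receptor genes passed above 0, and without mouse 3, mouse 4 or mouse 5, 2 did. Against a minimum size of 0.5 (limma's treat), 2 receptor genes passed below 0 and 0 above 0. The share of all genes past this minimum size is not given here. The median ratio of the receptor genes was -0.12, against 0.00 over all genes tested. A mean ratio below -1 was found for 7 of the 55 receptor genes and for 123 of all 9727 genes. One above 1 was found for 0 receptor genes and for 12 of all genes. Below 0 on every array that measured them were 24 receptor genes and above 0 on every such array 8, while over all genes these shares were 20.9% and 19.2%. Of the 16 genes with too few values for a test, 10 had none on any array.

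**Figure D1:**
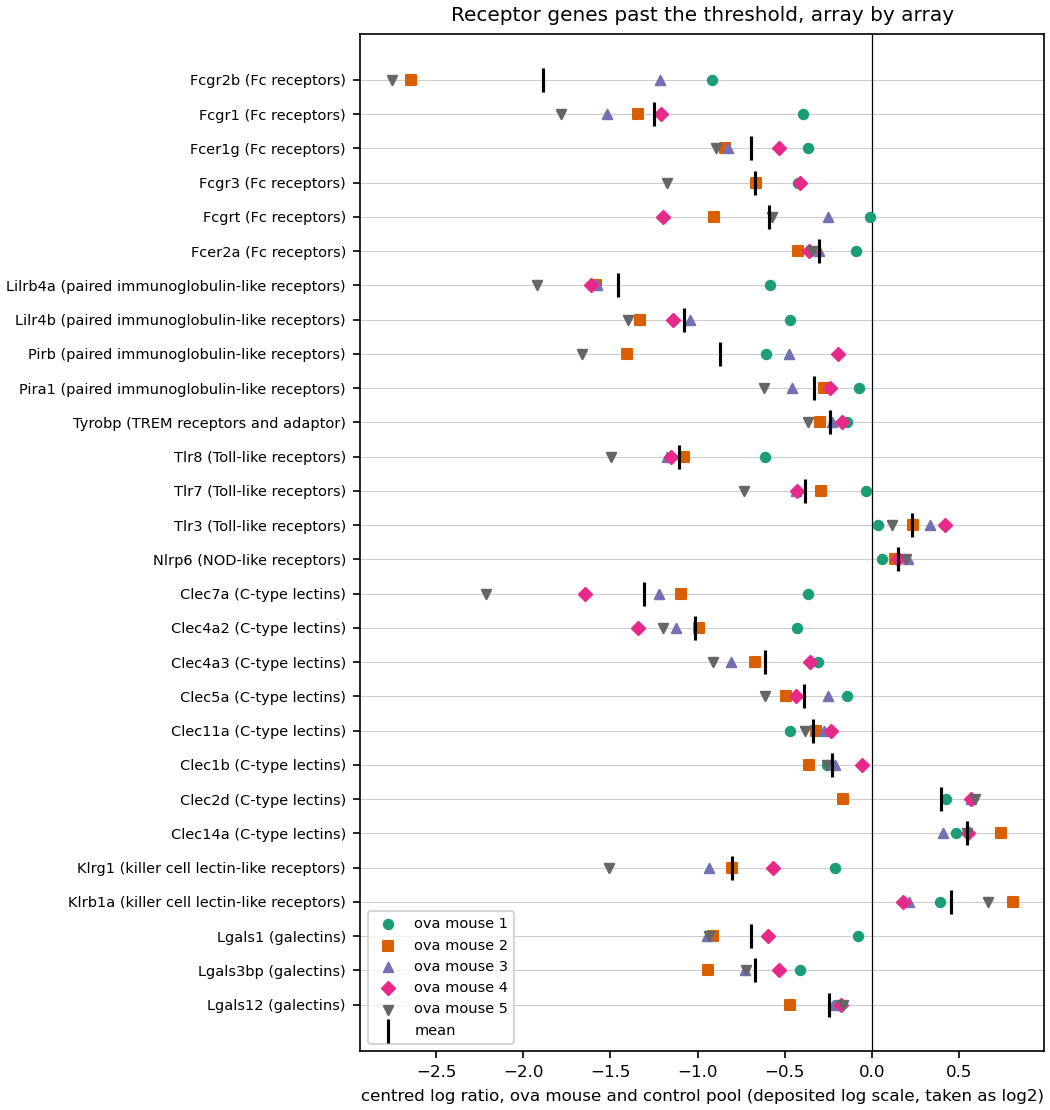
Centred log ratio (x axis, log2 as taken) of the 28 receptor and lectin genes past the threshold on each of the 5 arrays, by family from top to bottom; symbols are single ova mice and the bar is their mean. Mouse 1 was nearest to 0 for 18 of the 23 genes that passed below 0, and mouse 5 was the lowest for 15.

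The mice differed in the size of these ratios. Over the 23 genes that passed below 0, the median ratio was -0.36 in mouse 1, -0.84 in mouse 2, -0.77 in mouse 3, -0.48 in mouse 4 and -0.91 in mouse 5. Mouse 1 stood nearest to 0 and mouse 5 farthest from it. Mouse 1 had smaller ratios over the whole array as well: the SD across probes was 0.20 there, and 0.32 to 0.38 in mice 2 to 5. Pearson's r between arrays, across probes, lay between 0.64 and 0.83. Each array held between 11778 and 13320 values.

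Fc receptors bind the constant part of antibodies and connect IgG and IgE to macrophages, mast cells and B cells. All 6 tested genes passed below 0, with a median of -0.68, and each was below 0 in every mouse with a value. Fcgr2b, the inhibitory receptor for IgG, had ratios of -0.92, -2.64, -1.22 and -2.76 in mice 1, 2, 3 and 5 and no value in mouse 4. The values in mice 2 and 5 were far below those in mice 1 and 3. The mean of Fcgr2b was -1.88 ± 0.95 (SD, n = 4, limma adjusted p = 0.00664), the largest in size among the 55 genes and 3.69-fold if the log base is 2.

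Fcgr1, the high-affinity activating IgG receptor of macrophages and monocytes, had ratios of -0.40, -1.34, -1.52, -1.21 and -1.78 in mice 1 to 5. Mice 2 to 5 stood close together and mouse 1 apart, and the mean was -1.25 ± 0.52 (n = 5, limma adjusted p = 0.0024). Fcer1g, the ITAM-bearing gamma chain that Fcgr1, Fcgr3 and the high-affinity IgE receptor all need, had -0.36, -0.84, -0.82, -0.53 and -0.89. Its mean of -0.69 ± 0.23 (limma adjusted p = 0.00157) was about that of Fcgr3, the low-affinity activating IgG receptor, at -0.67 ± 0.36 (n = 4). Fcgrt had -0.59 ± 0.48, from -0.01 in mouse 1 to -1.20 in mouse 4. Fcer2a, the low-affinity IgE receptor CD23 of B cells, had -0.30 ± 0.13. Fcer1a, the IgE-binding chain of the mast cell and basophil receptor, was measured in 3 mice only and not tested, with values of -0.04, -0.07 and -0.06, close to 0 in each.

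The call of Fcgrt was lost without mouse 2 (mean -0.51), mouse 4 (-0.44) or mouse 5 (-0.59), where limma gave adjusted p-values of 0.0901, 0.0677 and 0.0817. Under 15 alternatives these ran from 0.00895 to 0.0901. The other 5 Fc receptor genes kept theirs in each alternative in which they were tested, 14 for Fcgr2b and Fcgr3 and 15 for the others, except a minimum size of 0.5, which no Fc receptor gene passed.

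Promoters are shown for 2 of these genes and for a pair of paired immunoglobulin-like receptor genes described next, because their products work through Fcer1g or against it and all 4 lay below 0. All 4 also hold the word marked below. The windows of Fcgr2b and of Fcer1g itself, which lay below 0 too and are not shown, lack it. The windows run from 250 bases before to 50 bases after the annotated start, 5′ to 3′ on the gene's strand, from RefSeq on GRCm38.p6, which is C57BL/6J and not C3H sequence. Capitals mark GAGGAAG or its complement, a word of the binding site of PU.1, the transcription factor of myeloid and B cells.
Fcgr1, chr3:96293920-96294219, minus strand: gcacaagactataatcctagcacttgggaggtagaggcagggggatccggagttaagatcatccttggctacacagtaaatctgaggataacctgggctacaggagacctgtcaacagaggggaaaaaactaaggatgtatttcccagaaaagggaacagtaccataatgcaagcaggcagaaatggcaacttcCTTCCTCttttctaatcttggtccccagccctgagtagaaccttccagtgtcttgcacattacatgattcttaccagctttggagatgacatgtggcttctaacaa
Fcgr3, chr1:171059345-171059644, minus strand: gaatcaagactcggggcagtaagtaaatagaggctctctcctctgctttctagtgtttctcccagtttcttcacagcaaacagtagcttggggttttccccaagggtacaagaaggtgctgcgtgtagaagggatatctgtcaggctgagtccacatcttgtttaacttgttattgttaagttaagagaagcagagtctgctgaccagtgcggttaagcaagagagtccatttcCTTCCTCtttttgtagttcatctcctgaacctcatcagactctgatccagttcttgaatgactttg
Pirb, chr7:3720333-3720632, minus strand: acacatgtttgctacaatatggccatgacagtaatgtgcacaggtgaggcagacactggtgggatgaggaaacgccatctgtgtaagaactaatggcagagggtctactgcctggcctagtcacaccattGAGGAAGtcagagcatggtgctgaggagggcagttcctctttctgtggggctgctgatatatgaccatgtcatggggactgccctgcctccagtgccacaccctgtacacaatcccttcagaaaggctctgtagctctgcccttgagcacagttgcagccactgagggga
Pira1, chr7:3739868-3740167, minus strand: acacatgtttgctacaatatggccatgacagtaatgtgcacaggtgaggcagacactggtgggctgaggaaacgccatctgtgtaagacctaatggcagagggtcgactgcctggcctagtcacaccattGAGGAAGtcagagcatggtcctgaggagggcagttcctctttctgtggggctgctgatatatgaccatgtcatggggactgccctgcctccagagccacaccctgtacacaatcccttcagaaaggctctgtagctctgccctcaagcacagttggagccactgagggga

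Counted in bases from the annotated start, the word begins at -56 in Fcgr1, at -16 in Fcgr3 and at -120 in both Pirb and Pira1. It was in 6 of 22 windows (27.3%) of receptor genes that passed below 0 and in 9 of 27 (33.3%) of those not past the threshold. It was in 13.6% of all 32851 windows of that length. Counted by gene, 5 of the 17 below 0 that had a window held this word, among them the 4 shown. Of the genes not past the threshold, 9 of 23 held it. The STAT6 word, TTC and GAA with 4 bases between them, was in 5 of 22 windows of genes that passed below 0 (Clec5a, Clec7a, Fcer2a and Tlr8), in 0 of 27 of those not past the threshold, and in 6.95% of all windows. The interferon response word, GAAA and GAAA with 2 bases between them, was in 0 of 22 and 4 of 27 (3.44% of all windows), and the NF-kB word, GGGA and TTCC with 2 bases between them, in 1 of 22 and 0 of 27 (1.47%). In the 5 windows of genes that passed above 0, the PU.1, interferon response and NF-kB words were each in 1 and the STAT6 word in 0. All were searched on both strands. Of the 55 genes, 45 had a promoter window, some more than 1, and in some genes, such as Clec7a and Fcgr3, these overlap. The words were chosen with the ratios known, and a word is a description of the letters only.

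Paired immunoglobulin-like receptors come as activating and inhibitory relatives that bind MHC class I and other ligands on myeloid and B cells. All 4 tested genes passed below 0, in 5 of 5 mice each, with a median of -0.97. Lilrb4a, the inhibitory receptor gp49B of mast cells and macrophages, had ratios of -0.58, -1.58, -1.58, -1.61 and -1.92. Mouse 1 stood apart from the other mice, and the mean was -1.46 ± 0.51 (n = 5, limma adjusted p = 0.00135). Lilr4b, its close relative without an inhibitory motif, was likewise nearest to 0 in mouse 1 and farthest from it in mouse 5, with -0.47, -1.33, -1.04, -1.14 and -1.40 and a mean of -1.08 ± 0.37.

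Pirb, the inhibitory receptor of the Pir pair, had -0.61, -1.40, -0.47, -0.19 and -1.66, with mice 2 and 5 low and mouse 4 near 0. Its mean was -0.87 ± 0.63 (limma adjusted p = 0.0176). Pira1, an activating relative that signals through Fcer1g, had a mean of -0.33 ± 0.21. The promoter windows of Pirb and Pira1 shared 292 of 300 bases (97.3%) without gaps, and whether their probes, or those of Lilrb4a and Lilr4b, share signal was not tested. The call of Pirb was lost without mouse 2 (limma adjusted p = 0.0589, mean -0.74; 0.00548 to 0.0589 over its 15 alternatives). That of Pira1 was lost without mouse 3 or mouse 5 (limma adjusted p-values of 0.0675 and 0.0502, means -0.30 and -0.26; 0.0074 to 0.0675 over its 15 alternatives).

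TREM receptors of myeloid cells signal through Tyrobp, the adaptor DAP12. Tyrobp passed below 0 at -0.24 ± 0.09 (n = 5, limma adjusted p = 0.0101), with -0.14, -0.30, -0.23, -0.17 and -0.37 in mice 1 to 5, a narrow range without overlap with 0. None of the 3 receptors tested passed. Trem1, which amplifies neutrophil and monocyte responses, had -0.10, Trem3 -0.04 and Trem2, a lipid-sensing receptor of macrophages, 0.14, above 0 in all 5 mice. The ratios of these receptors lay closer to 0 than those of most Fc receptors, a difference that was not tested.

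**Figure D2:**
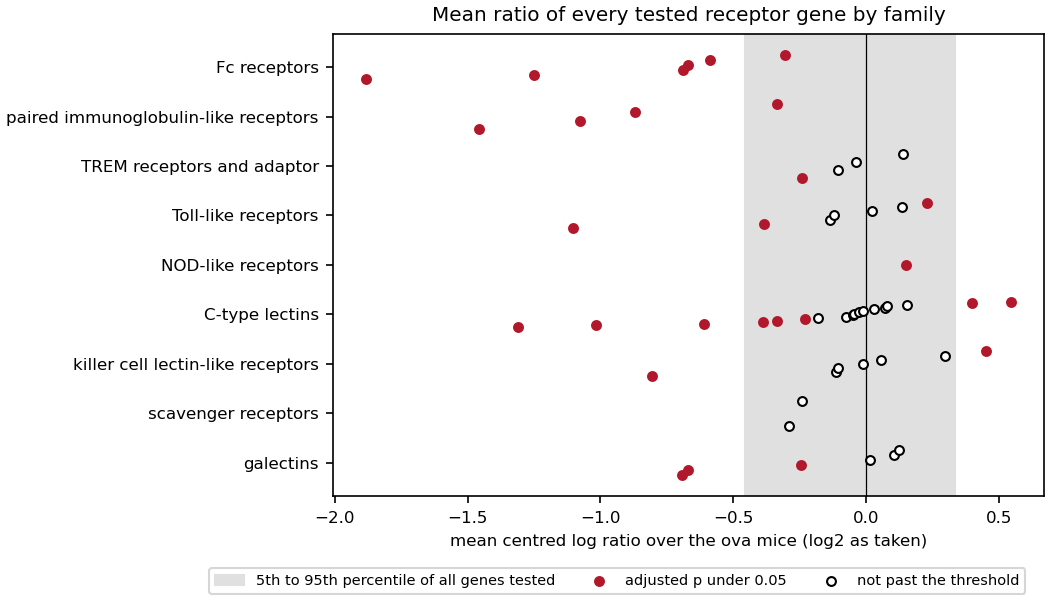
Mean centred log ratio over the ova mice (x axis, log2 as taken) of each of the 55 tested genes, a row for each family; filled points passed an adjusted p of 0.05 and open points did not, and the grey band spans the 5th to 95th percentile of all 9727 genes tested (-0.46 to 0.33). All Fc receptor and paired immunoglobulin-like receptor genes lie below 0, and those of C-type lectins lie on both sides.

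Of 7 tested Toll-like receptor genes, 2 passed below 0, 1 above 0 and 4 did not pass. The nucleic acid sensors of endosomes held all 3 calls. Tlr8, an endosomal sensor of RNA products, had ratios of -0.61, -1.08, -1.17, -1.15 and -1.50. All mice were well below 0, with mouse 1 the nearest to it, and the mean was -1.10 ± 0.32 (n = 5, limma adjusted p = 0.000852, 2.15-fold if base 2). Tlr7, its neighbour on the X chromosome and a sensor of single-stranded RNA, had -0.04, -0.29, -0.43, -0.43 and -0.73, near 0 in mouse 1, and a smaller mean of -0.38 ± 0.25. Tlr3, the sensor of double-stranded RNA that signals without MyD88, lay above 0 at 0.23 ± 0.16, with 0.04, 0.23, 0.33, 0.42 and 0.11. Tlr9, the receptor for unmethylated CpG DNA, had 0.02 and did not pass.

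The receptors of bacterial products tested were Tlr1 and Tlr6, partners of Tlr2 in binding lipopeptides, and Tlr5, the flagellin receptor. Their means were -0.12 (n = 4), -0.14 and 0.13, and 0 of 3 passed in limma. Tlr6 was near 0 in 4 mice and at -0.51 in mouse 3. Tlr4, the receptor for lipopolysaccharide, had 1 value from each of its 2 probes, -0.26 in mouse 1 and -0.02 in mouse 5, and Tlr2 had none, so neither was tested. The call of Tlr3 was lost without mouse 2, 3, 4 or 5 (limma adjusted p-values of 0.0838, 0.11, 0.0852 and 0.0571, means 0.23, 0.20, 0.18 and 0.26; 0.0205 to 0.11 over its 15 alternatives). That of Tlr7 was lost without mouse 3 or mouse 4 (0.0639 and 0.0518, mean -0.37 both times; 0.00477 to 0.0639 over its 15 alternatives), so 1 Toll-like receptor gene passed in either case.

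Around these receptors, 8 of 26 tested genes of Toll-like receptor co-receptors and signalling passed below 0 and 3 above 0. Their median was -0.07. Ly86, the MD-1 protein that pairs with the Toll-like receptor relative CD180, had -1.77 ± 0.48 (limma adjusted p = 0.000656), and Unc93b1, which carries nucleic acid sensing receptors to the endosome, had -0.53 ± 0.20. Rela, the p65 subunit of NF-kB, lay above 0 at 0.44 ± 0.08. Without mouse 2 the list had 7 genes past the threshold in place of 11.

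NOD-like receptors were covered thinly, with 1 of 4 named genes tested. Nlrp6, a cytosolic receptor known from epithelium, passed above 0 with a small mean of 0.15 ± 0.06 (n = 5, limma adjusted p = 0.0397) and values between 0.06 in mouse 1 and 0.21 in mouse 3. The call was lost without mouse 2, 3, 4 or 5 (limma adjusted p-values of 0.0877, 0.117, 0.076 and 0.12, means 0.15, 0.13, 0.15 and 0.14; 0.032 to 0.12 over its 15 alternatives). Among 14 tested genes of inflammasome and NOD partners, 7 passed below 0 and 1 above 0. Txnip, a redox protein that can bind an inflammasome receptor, had 0.40 ± 0.10, the kinase gene Nek7 had -0.69 ± 0.28, and Birc3, a ubiquitin ligase of NOD signalling, had -0.31 ± 0.07.

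C-type lectins recognise glycans, lipids and protein ligands and were the largest family, with 18 tested genes. Of these 6 passed below 0, 2 passed above 0 and 10 did not pass. Clec7a, the fungal beta-glucan receptor dectin-1 of macrophages, dendritic cells and neutrophils, had ratios of -0.37, -1.09, -1.22, -1.65 and -2.21. The mice were spread widely, with mouse 1 nearest to 0 and mouse 5 farthest, and the mean was -1.31 ± 0.68 (n = 5, limma adjusted p = 0.00501). Clec4a2, the inhibitory receptor DCIR of dendritic cells and macrophages, had -0.43, -0.99, -1.12, -1.34 and -1.20 and a mean of -1.02 ± 0.35 (limma adjusted p = 0.00143). Its relative Clec4a3 had -0.31, -0.67, -0.81, -0.35 and -0.91 and a mean of -0.61 ± 0.27.

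Clec5a, a myeloid lectin that signals through Tyrobp, passed at -0.39 ± 0.19. Clec11a, a secreted growth factor of bone and blood progenitors, passed at -0.34 ± 0.09, and here mouse 1 had the lowest value of all, -0.47. Clec1b, the platelet receptor CLEC-2 for podoplanin, passed at -0.23 ± 0.11. Its call was lost without mouse 2, 3 or 5 (limma adjusted p-values of 0.0553, 0.0526 and 0.0592, means -0.20, -0.23 and -0.22; 0.0108 to 0.0592 over its 15 alternatives).

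The inducible lectin receptors of the Clec4 cluster that sense mycobacterial and fungal glycolipids or mannans did not pass. Clec4d and Clec4e, known as MCL and Mincle, had means of 0.07 and 0.08. Clec4n, known as dectin-2, had 0.34, 0.41, -0.40, -0.54 and -0.71 in mice 1 to 5, a mean of -0.18 ± 0.52, so mice 1 and 2 lay above 0 and mice 3, 4 and 5 below it. The means of the other genes not past the threshold lay between -0.07 for Clec16a and 0.15 for Clec3b.

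Above 0, Clec14a, a transmembrane protein of vascular endothelium, had ratios of 0.48, 0.74, 0.41, 0.55 and 0.54. All mice lay close together, and the mean was 0.55 ± 0.12 (n = 5, limma adjusted p = 0.000933). Of 9 tested endothelium markers, 8 passed above 0 as well and 0 below 0, with a median of 0.53, among them Ace (0.82), Sox18 (0.67) and Eng (0.64). Clec2d, the ligand of the inhibitory killer cell receptor encoded by Klrb1b, had 0.43, -0.17, 0.57, 0.57 and 0.59, with mouse 2 alone below 0. Its mean was 0.40 ± 0.32 (limma adjusted p = 0.0319), and the call was lost without mouse 1, 3, 4 or 5 (limma adjusted p-values of 0.0633, 0.109, 0.0937 and 0.109, means 0.39, 0.36, 0.36 and 0.35; 0.00305 to 0.109 over its 15 alternatives). The single probe of Clec2d lies 3 table rows from that of Hspa8 (1.92), and the part of that in its ratio was not tested.

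Killer cell lectin-like receptors tune natural killer and T cell cytotoxicity. Of 14 named genes 7 were tested, and of the other 7, which include Klrd1, Klrk1, Klrc1 and Klrc2, 5 had no value on any array. Among the 7 tested, 1 passed on each side. Klrg1, an inhibitory receptor for cadherins on mature natural killer cells and effector T cells, had -0.21, -0.80, -0.93, -0.57 and -1.51, below 0 in 5 of 5 mice, with a mean of -0.80 ± 0.48 (n = 5, limma adjusted p = 0.00875). Klrb1a, an activating receptor of the NKR-P1 group, had 0.39, 0.81, 0.21, 0.18 and 0.67, a mean of 0.45 ± 0.28 (limma adjusted p = 0.012).

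Its relatives did not pass. Klrb1b, the inhibitory receptor of the group, had 0.07, 0.89, 0.19, 0.08 and 0.27 as the average of 2 probes, above 0 in all mice and set apart by mouse 2. The mean ratios of the probes were 0.18 and 0.42, and 1 of them lies 22 table rows from that of Saa3 (-3.88), whose part in it was not tested. Klrb1c, another gene of the NKR-P1 group, had 0.06, and the Ly49 receptor genes Klra1 and Klra17 had -0.10 and -0.11. Of 10 tested natural killer cell markers, 3 passed below 0, 1 above 0 and 6 not at all. In all 1 passed without mouse 3 and 2 without mouse 5. Of the markers that passed below 0, the granzyme gene Gzma had -1.09, the chemokine gene Ccl5 -0.85 and Cd244a -0.44 (n = 4). The marker that passed above 0 was Gzmb, at 0.28 (n = 4). The part of cell numbers in the ratios of Klrg1 and Klrb1a was not tested.

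The 21 tested genes that the RefSeq table places on chromosome 6, where the Clec4, Klr and dectin-1 clusters lie, were divided, with 6 past the threshold below 0, 2 above 0 and 13 not past the threshold. Of all 511 tested genes on this chromosome, 76 passed below 0 (14.9%) and 62 above 0. Neighbours along the chromosome differed: Clec4a2 at -1.02 is followed in this set by Clec4n at -0.18, Clec4d at 0.07 and Clec4e at 0.08. Clec12b at 0.03 and Clec1b at -0.23 precede Clec7a at -1.31, which is followed by Klra17 at -0.11.

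Scavenger receptors take up modified lipoproteins and bacteria. Marco, a marker of alveolar macrophages, had 0.46, -0.05, -0.41, -0.79 and -0.42, and Msr1 -0.04, -0.41, -0.11, 0.09 and -0.98. In both, 1 mouse lay above 0 and the others below. Neither passed, with means of -0.24 ± 0.47 and -0.29 ± 0.43. Without mouse 1, Marco had a mean of -0.42 and passed (limma adjusted p = 0.029; 0.029 to 0.643 over its 14 alternatives). The single probe of Marco lies 11 table rows from that of Tff2 (-3.32), and the part of that in its ratio was not tested. Of 25 tested genes of other scavenger and pattern recognition molecules, 8 passed below 0 and 2 above 0. Zbp1, a cytosolic nucleic acid sensor, had -0.90 ± 0.21, Cd68, which also stands among the macrophage markers, -0.46 ± 0.17 and Dhx58, a regulator of RNA helicase sensors, -0.64 ± 0.29.

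Galectins are lectins that bind beta-galactosides on cells and matrix. Of 6 tested genes with this name, 3 passed below 0 and 3 did not pass. Lgals1, the galectin of stroma and activated lymphocytes, had -0.08, -0.91, -0.95, -0.60 and -0.93, near 0 in mouse 1 and well below it in the others, with a mean of -0.69 ± 0.37 (n = 5, limma adjusted p = 0.00646). Lgals3bp had -0.41, -0.94, -0.73, -0.54 and -0.72 and a mean of -0.67 ± 0.20 (limma adjusted p = 0.00133). Lgals12, a galectin of fat cells, had -0.21, -0.47, -0.22, -0.18 and -0.16, lowest in mouse 2, and a mean of -0.25 ± 0.13. Lgals9, Lgals2 and Lgals8 had means of 0.10, 0.12 (n = 4) and 0.01, and Lgals9 was above 0 in 5 of 5 mice.

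The genes can also be grouped by how they signal. This grouping was made with the values known and is a description. Of 9 receptors with an ITIM, 5 passed below 0 and 0 above 0, with a median over the 9 of -0.80 (Fcgr2b, Lilrb4a, Clec4a2, Pirb and Klrg1 passed). The other 4 did not pass, with means up to 0.30. This median is the mean of Klrg1, the nearest to 0 of the 5 that passed. Of 13 receptors that signal through an ITAM adaptor, 4 passed below 0 (Fcgr1, Fcgr3, Clec5a and Pira1) and 1 above 0 (Klrb1a), with a median over the 13 of -0.05. The 2 ITAM adaptors, Fcer1g and Tyrobp, both passed below 0, with a median of -0.47. So did the 2 lectins with an ITAM-like motif of their own, Clec7a and Clec1b, with a median of -0.77. Activating genes outside the 13 receptors thus lay below 0 as well. Differences between these groups were not tested.

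**Figure D3:**
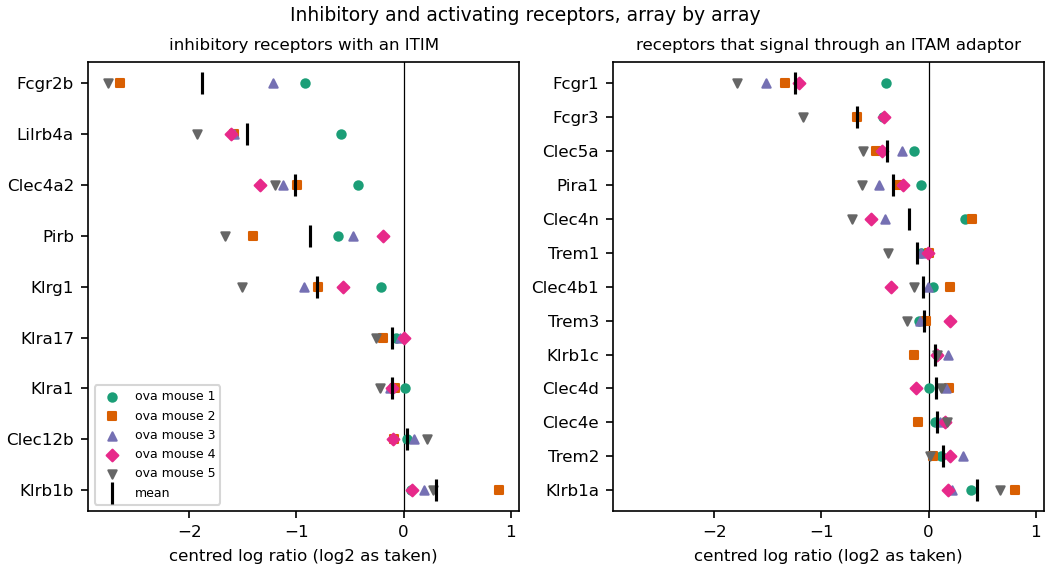
Centred log ratio (x axis, log2 as taken) on each array of 9 inhibitory receptor genes (left) and 13 receptor genes that signal through an ITAM adaptor (right), ordered by mean; symbols are single ova mice and bars their mean. The 5 uppermost genes at left and the 4 uppermost at right lie below 0 in every mouse that measured them, and Klrb1a, lowest at right, lies above 0 in all 5; Fcgr2b lacks mouse 4 and Fcgr3 mouse 3.

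The signalling genes behind these receptors lay below 0 where they passed. Of 34 tested genes of ITAM and ITIM receptor signalling, 17 passed there and 0 above 0, with a median of -0.19. Prkcd, a kinase of Fc receptor and C-type lectin signalling, had -0.52, -0.86, -0.66, -0.67 and -0.69 and a mean of -0.68 ± 0.12 (n = 5, limma adjusted p = 0.00055). The kinase gene Btk had -0.62 ± 0.16, and Lcp2, the scaffold protein SLP-76, had -0.74 ± 0.25. Syk itself passed at -0.31 (n = 4), as did Inpp5d, the phosphatase SHIP-1 through which Fcgr2b inhibits, at -0.28.

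The marker lists of cells that can carry these receptors differed in their counts. Over all genes tested, 15.0% passed below 0 and 12.3% above 0. Of 10 tested macrophage markers, 9 passed below 0 and 0 above 0, led by C1qb (-1.99), C1qa (-1.64) and Aif1 (-1.20). Their median was -0.14 in mouse 1, -1.48 in mouse 2, -0.95 in mouse 3, -0.77 in mouse 4 and -1.17 in mouse 5. The median of the 6 Fc receptor genes was -0.38, -0.88, -0.82, -0.53 and -1.03, so both sets were nearest to 0 in mouse 1 and next in mouse 4. The medians of neutrophil, eosinophil and endothelium markers, the last above 0, had mouse 1 and mouse 4 nearest to 0 as well. Lung epithelium markers had mouse 4 (-0.03) nearest and mouse 1 (0.09) next. Other lists differed: B cell (-0.12) and dendritic cell markers (0.02) were nearest to 0 in mouse 2, and natural killer cell markers (-0.06) in mouse 3. For T cell and for mast cell and basophil markers, mouse 1 was nearest and mouse 2 next. Neutrophil markers gave 7 of 8 below 0, with a median of -0.47 (Camp -1.17, S100a8 -1.13 and S100a9 -0.73 among them), and 4 without mouse 3 or without mouse 5. B cell markers gave 7 of 9 below 0 and 1 above 0, against 3 genes past the threshold on either side without mouse 3 or without mouse 5 and 5 without mouse 4. Ighm had -0.55, Blk -0.40 and Cr2 -0.28, and the marker above 0 was Vpreb3, at 0.32. Across the partner and marker lists, 12 of 288 genes stand on more than one.

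Eosinophil markers gave 3 of 5 below 0 (Rnase2a -4.23, Alox15 -0.96 and Ccr3 -0.39) and 1 above 0, Siglecf at 0.30. Prg2, at -0.14, did not pass. Dendritic cell markers gave 3 of 8 below 0 (Irf8 -0.34, Ccl17 -0.28 and Zbtb46 -0.27) and 0 above 0. Mast cell and basophil markers gave 1 of 6 on each side, Mcpt8 at -1.20 and Gata2 at 0.62, and T cell markers 1 of 8, Cd2 at -0.54, and 0 above 0. Without mouse 2, mouse 3 or mouse 5, 2 eosinophil markers in all passed. Lung epithelium markers passed on both sides, with 4 of 12 below 0 and 5 above 0 (Hopx 0.65, Krt18 -0.29 and Cdh1 -0.41 among them). The part of cell numbers in the receptor ratios was not tested.

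**Figure D4:**
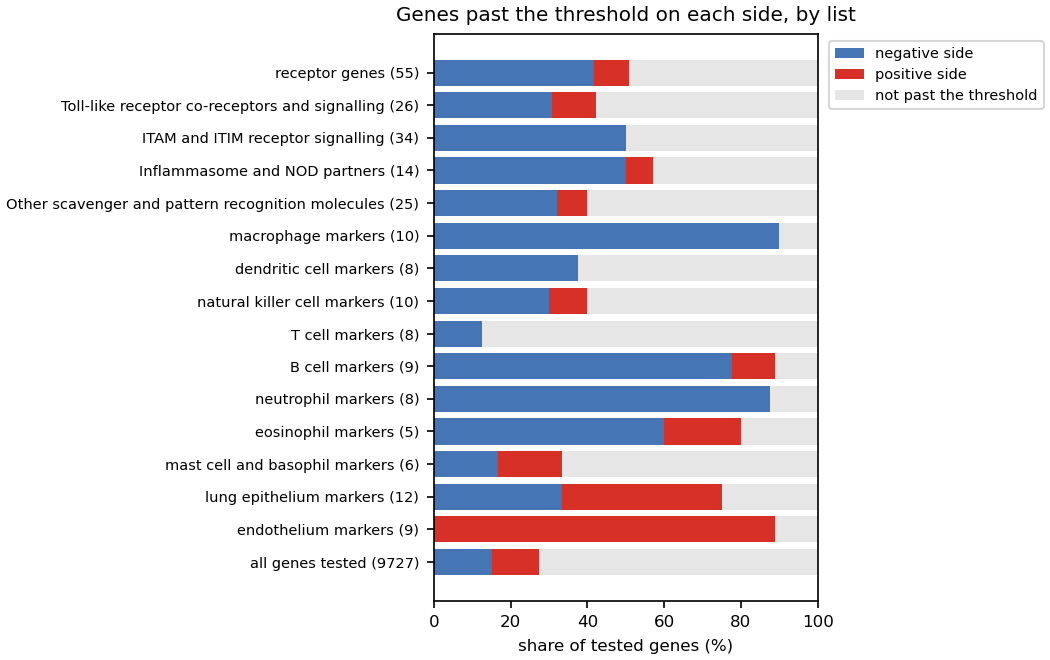
Share of tested genes (x axis, %) past the threshold below 0 (blue), above 0 (red) or not past it (grey), for the receptor genes, 4 lists of partner genes, 10 lists of cell type markers and all genes; the number tested is in brackets. The receptor genes have 41.8% past the threshold below 0, against 15.0% of all genes, and macrophage and neutrophil markers have the longest blue bars.

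**Figure D5:**
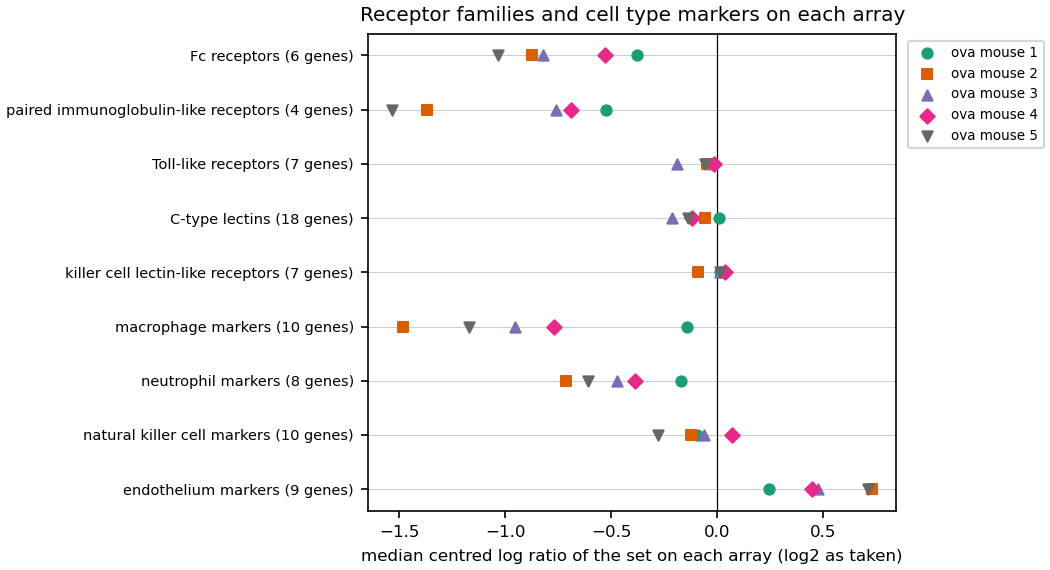
Median centred log ratio (x axis, log2 as taken) on each array for 5 receptor families and 4 marker lists; symbols are single ova mice and the number of genes is in brackets. Fc receptors, paired immunoglobulin-like receptors, macrophage markers and neutrophil markers lie below 0 in all 5 mice. So do Toll-like receptors, between -0.19 and -0.02, and killer cell lectin-like receptors lie near 0.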

How the data were processed

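Lungs of 5 ova mice were each compared with 1 control pool on 2-colour arrays. The authors deposited a table of log2 ratios as read here, 1 per probe and array; neither base nor numerator is stated, and the sources used here do not give the image analysis, background correction or normalization. Spot brightness was not available, so faint spots were recognised only where left blank. Gene names came from the platform annotation, which gave 1 symbol for 14722 of 17280 probes, several for 1 and none for 2557.

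Arrays were centred on their median and probes naming only 1 gene were averaged per gene and array. All 9727 genes with values on at least 4 arrays were tested against 0 with limma 3.58.1 in R 4.3.3 (lmFit, eBayes, two-sided, Benjamini-Hochberg over all genes). The pool counts as 1 control sample, and spread among control mice is left out. The labels do not give the dyes. An error of the pool or of a dye that recurs on each array cannot be told apart from an ova difference, also where the mice lie close together. On simulated data for these 9727 genes, the test recovered 96.6% of genes shifted by 1 and 42.3% at a shift of 0.3. In the simulation 200 genes were shifted, whereas 2656 passed in the data, and its noise held no error shared through the pool. These shares therefore do not give the recovery in the data. The number of arrays limits the precision, and an exact two-sided sign test over 5 cannot go below 0.0625.

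Genes past the threshold were named with mean and SD, and up to 3 of largest size per family array by array; partner and marker lists were given by counts and up to 3 genes of smallest p. Other genes were named after their values were seen. The receptor genes and all lists were chosen with earlier results of these data known. Alternatives changed centring, normalization, the filter on blanks, the treatment of probes, limma's settings, probes near strong ones and the mice included.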

Additional observations from a re-analysis of the deposited data

Results flagged for a closer look

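In 8 of the 55 tested genes, 1 mouse stood apart from the others by Dixon's criterion at the 95% level; chance alone flags about 1 in 20 groups, or 2.75 of 55. Mouse 2 was the one apart in 4 of them. Clec2d was at -0.17 in mouse 2 against 0.43 to 0.59 elsewhere, Klrb1b at 0.89 against 0.07 to 0.27, Lgals12 at -0.47 against -0.22 to -0.16, and Lgals2 at 0.30 against 0.04 to 0.08 (4 mice). Mouse 3 stood apart for Tlr6, at -0.51 against -0.06 to -0.02, and for Clec4f, at -0.21 against 0.00 to 0.02 (4 mice). Lilrb4a was at -0.58 in mouse 1 against -1.92 to -1.58 elsewhere, and Trem1 at -0.38 in mouse 5 against -0.07 to 0.00.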

How the results depend on the processing

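Under 10 alternatives that kept all mice and the test against 0, between 21 and 23 receptor genes passed below 0 and 5 above 0, and the median ratio lay between -0.14 and -0.11 where the alternative could change it. Leaving out each mouse in turn gave 20 to 24 genes below 0, 2 to 4 above 0 (3 without mouse 2, and 2 without mouse 3, mouse 4 or mouse 5) and medians between -0.13 and -0.08. With limma's treat and a minimum size of 0.5, 2 genes passed below 0, Lilrb4a and Tlr8, and 0 above 0, where 5 had passed against 0. Over all genes and both sides, 2656 of 9727 passed with all mice, 2553 of 10000 without mouse 1 and 1898 of 9892 without mouse 2. The counts were 1678 of 10267 without mouse 3, 2111 of 10367 without mouse 4 and 1599 of 10021 without mouse 5. Of the 28 genes past the threshold, 20 kept their call in each alternative other than the minimum size in which they were tested (14 for Fcgr2b and Fcgr3, which lack an array and drop out where all 5 are required, and 15 for the others), and 8 lost it in at least 1, always when a mouse was left out. The ratio changed sign in 9 genes, 0 of which had passed and whose means were near 0: with array weights Lgals8 (-0.017) and Clec2i (0.022), and, over the fits that leave out 1 mouse, Lgals8 (-0.0385 to 0.0615), Clec2i (-0.084 to 0.03025), Clec2g (-0.051 to 0.02067), Klrg2 (-0.02225 to 0.00975), Tlr9 (-0.01625 to 0.0745), Clec4f (-0.068 to 0.008), Clec4b1 (-0.1142 to 0.02425), Trem3 (-0.09875 to 0.0015) and Clec12b (-0.01525 to 0.064); the cause was not tested. With values on all 5 arrays required, or with probes near strong probes left out, 2 and 1 natural killer cell markers passed in place of 4. No paired analysis was possible because the arrays form 1 group against a shared pool. Faint spots cannot be told from bright ones here, so small ratios of weakly expressed receptors rest on unknown signal.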
